A study of Mus musculus with 2 samples.

Results

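The 9 genes described here are the BMP ligands Bmp2, Bmp4 and Bmp6, the BMP receptor Bmpr2, the inhibitory Smads Smad6 and Smad7, and the target genes Id1, Id2 and Id3. They were taken by symbol from the 27933 genes of the deposited tables, and all 9 were present. Stromal cells of mandibular lymph nodes of mice were profiled by droplet sequencing. The nodes were taken 24 h after an infusion of autologous blood around the brain, a model of subarachnoid haemorrhage (SAH), or after sham surgery. The SAH group and the sham group each consist of 1 library made from the pooled nodes of 20 mice, and the labels give neither strain, age nor sex. In both groups CD45-bearing cells had been depleted, and cells that bound antibodies against CD31 or podoplanin had been kept. With 1 library per group no test was possible, the differences have no replicate check, and every statement compares these 2 libraries, not the operations.

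Bone morphogenetic proteins (BMPs) are secreted ligands of the TGF-beta family. They bind pairs of type I and type II receptors, which phosphorylate Smad1, Smad5 and Smad9, and these enter the nucleus with Smad4 and switch on genes such as the Id genes. Id proteins bind E proteins (Tcf3, Tcf4 and Tcf12) and keep them from binding DNA, while Smad6 and Smad7 are induced by the same signal and damp it. In endothelium the pathway acts through the type I receptor Acvrl1 (ALK1), the co-receptor Eng and the type II receptor Bmpr2, and it is known for its part in keeping blood vessels quiescent.

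The letters before the starts of Id2 and Id3 were searched. In the SAH library Id2 was lower by more than 1.5-fold in lymphatic and fibroblastic cells, and Id3 and Smad7 in fibroblastic cells. In fibroblastic cells Id2 and Id3 fell short of that size under some alternatives given below. RefSeq's promoter table (build GRCm38.p6) had an entry that was used for 6 of the 9 members, and Smad7 is not among them. The 250 bases before RefSeq's start of Id2 lie at chr12:25096093-25096342 on the minus strand, and those before RefSeq's start of Id3 at chr4:136143572-136143821 on the plus strand. GENCODE vM21, whose gene coordinates are given at the end, lets a longer transcript of each gene begin further upstream, so both windows lie inside its gene spans. All 250 bases of the Id3 window and 161 of the Id2 window fall in its exons. The other 89 bases of the Id2 window, from 250 to 162 bases before the start (chr12:25096254-25096342, minus strand), fall in no exon and are shown because they hold the single match. Capitals mark GGCGCC, a GC-rich element bound by BMP-activated Smads.
Id2: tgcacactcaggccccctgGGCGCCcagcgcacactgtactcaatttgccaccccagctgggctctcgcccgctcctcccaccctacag
Id2 held 1 GGCGCC, beginning 231 bases before the start, and neither GTCTG nor its reverse complement CAGAC, which hold the Smad box. Id3 held 2 matches to GTCTG on either strand, beginning 167 and 68 bases before the start, and no match to the GC-rich element. Among all 32851 windows of the same length, 9.59% held GGCGCC, which is its own reverse complement, and 42.2% held GTCTG on either strand, and these motifs do not overlap each other. These are matches of letters and not measured binding sites.

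The counts are UMIs, each of which marks 1 captured RNA molecule. The SAH library held 13766 barcodes with 78497486 UMIs, and the sham library 13952 barcodes with 72860197 UMIs. Barcodes with at least 500 genes and at most 10% mitochondrial UMIs were kept, which left 11454 SAH and 11157 sham cells. Lymphatic endothelial cells (LEC), the lining of the lymph-carrying channels of the node, were gated by at least 1 UMI of Prox1 and numbered 2562 in the SAH and 2364 in the sham library. Blood endothelial cells (BEC), gated by the absence of Prox1 with Pecam1 and either Ly6c1 or Flt1 present, numbered 6480 in the SAH and 6329 in the sham library, so the samples labelled as lymphatic endothelium were mostly blood endothelium. Fibroblastic stroma, gated by the absence of Pecam1 and Prox1 with at least 3 UMIs of Dcn and Col3a1 together, gave 1631 SAH and 1532 sham cells. Of the kept cells, 781 SAH and 932 sham cells fell in no class, and 49 kept barcode sequences occurred in both libraries. Median depths were 8193 SAH and 6871.5 sham UMIs in LEC, 4754 SAH and 4602 sham UMIs in BEC, and 6336 SAH and 4767.5 sham UMIs in stroma. Levels are CPM, the UMIs of a gene per 1000000 UMIs of the summed cells, and a ratio is the SAH CPM divided by the sham CPM, with its 95% interval (exact, conditional binomial) in brackets. All intervals cover counting error only. The 7 listed LEC markers were all detected in the LEC gate and summed to 4490.4 CPM in the SAH and 3079 CPM in the sham library. Their sum was higher outside it, at 5418 CPM in SAH and 3089 CPM in sham BEC and 15845 CPM in SAH and 10609 CPM in sham stroma, nearly all of it the chemokine Ccl21a. Without Ccl21a, left out after its values were seen, the other 6 summed to 2833 CPM in SAH and 2138 CPM in sham LEC, 118 CPM in SAH and 77.4 CPM in sham BEC, and 109 CPM in SAH and 76.9 CPM in sham stroma. The 6 BEC markers were detected in the LEC gate too, at 2383 CPM in the SAH and 2248 CPM in the sham library. Ly6c1 or Flt1 was detected in 1489 SAH and 870 sham cells of the LEC gate.

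The ligands Bmp2 and Bmp4 were each held mostly by a different set of lymphatic cells, and neither level differed in LEC between the libraries by more than counting error. Over all LEC, Bmp2 stood at 229.8 CPM in the SAH and 236 CPM in the sham library (0.974 [0.936, 1.01]), and Bmp4 at 50.2 CPM in the SAH and 50.4 CPM in the sham library (0.998 [0.914, 1.09]). LEC were split by Ackr4, the chemokine scavenger of cells on the capsule side (the ceiling) of the subcapsular sinus, by Madcam1 or Coch, which mark its floor, and by Marco, a scavenger receptor of medullary sinus cells. Bmp2 stood at 780.1 CPM in the SAH and 774 CPM in the sham library in Madcam1- or Coch-positive LEC, a ratio of 1.01 [0.959, 1.06]. In Ackr4-positive LEC it stood at 23.0 CPM in the SAH and 23.5 CPM in the sham library. Bmp2 was thus 33.9-fold [29.4, 39.2] higher in the Madcam1- or Coch-positive than in the Ackr4-positive cells of the SAH library, and 32.9-fold [28.5, 38.1] higher in the sham library. Marco-positive LEC lay between them, with 148 CPM of Bmp2 in the SAH and 194 CPM in the sham library.

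Bmp4 ran the other way. In Ackr4-positive LEC it stood at 89.8 CPM in the SAH and 88.5 CPM in the sham library, a ratio of 1.02 [0.918, 1.12]. In Madcam1- or Coch-positive LEC it stood at 4.85 CPM in the SAH and 4.39 CPM in the sham library, from 20 and 18 UMIs. With every cell thinned at random to 2000 UMIs, Bmp2 had a UMI in 64.3% [59.6, 68.7] of SAH and 66.8% [62.2, 71.2] of sham Madcam1- or Coch-positive LEC. The share in Ackr4-positive LEC was 4.29% in the SAH and 3.40% in the sham library. Bmp4 had a UMI in 13.7% [11.6, 16] of SAH and 14.2% [12.1, 16.4] of sham Ackr4-positive LEC, against 0.899% of SAH and 0.897% of sham Madcam1- or Coch-positive LEC. Unthinned, the Bmp2 shares in Madcam1- or Coch-positive LEC were 85.4% in the SAH and 88.1% in the sham library, and the Bmp4 shares in Ackr4-positive LEC were 41.0% in the SAH and 36.6% in the sham library. B cells, which should lack both ligands, gave 0 UMIs of Bmp4 in either library, and for Bmp2 gave 0 UMIs in 26 SAH cells and 1 UMI in 78 sham cells, at median depths of 2161 SAH and 1881.5 sham UMIs. So few B cells set only a loose background, since 0 of 16 thinned SAH cells allows a Bmp4 share of up to 18.8% by the limit of 3 counts and 20.6% by the exact interval, and 0 of 32 thinned sham cells one of up to 9.38% and 10.9%. Ackr4-positive and Madcam1- or Coch-positive LEC are thus the closer background for each other's ligand. The 2 ligands were rarely seen in the same cell. Among thinned LEC, 12 of 2509 SAH cells and 9 of 2324 sham cells held both. Bmp4 was found in 2.21% of the SAH cells with Bmp2 and in 9.62% of those without, and in 1.95% of the sham cells with Bmp2 and 10.1% of those without.

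**Figure D1:**
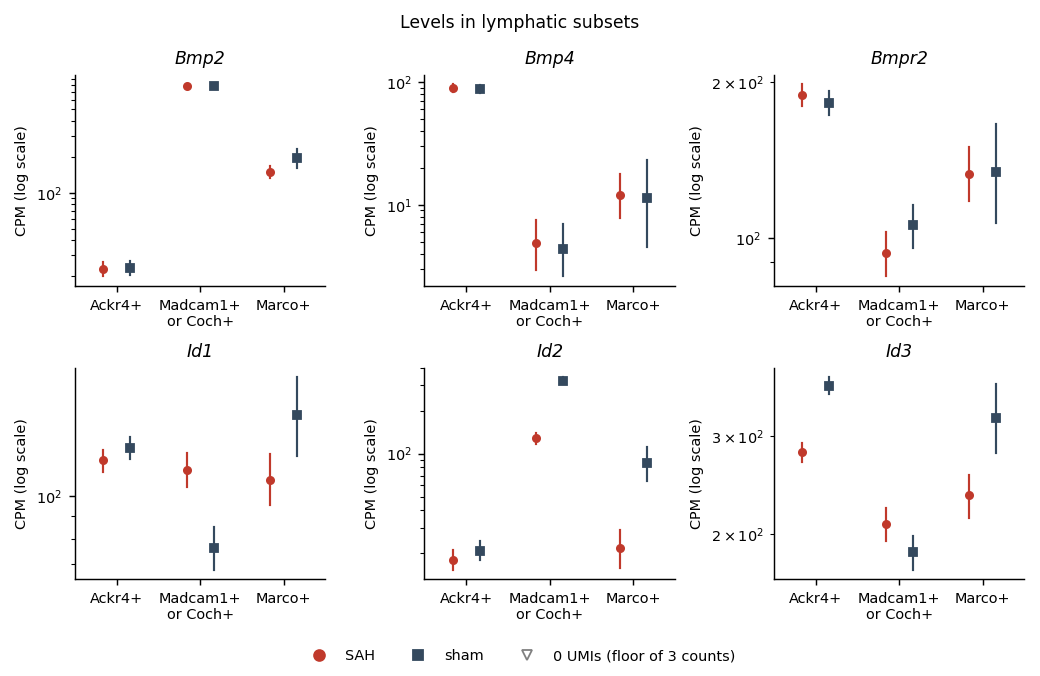
Level in CPM (log axis, a separate range in each panel) of Bmp2, Bmp4, Bmpr2, Id1, Id2 and Id3 in Ackr4-positive, Madcam1- or Coch-positive and Marco-positive LEC of the SAH library (circles) and the sham library (squares), with exact Poisson 95% intervals that cover counting error only. Bmp2 peaks in the Madcam1- or Coch-positive cells (780.1 CPM in SAH, 774 CPM in sham) and Bmp4 in the Ackr4-positive cells (89.8 CPM in SAH, 88.5 CPM in sham), while Id2 in the Madcam1- or Coch-positive cells is at 128 CPM in SAH and 325 CPM in sham.

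In BEC and stroma both ligands were lower than in LEC. Bmp2 stood at 19.7 CPM in SAH and 17.5 CPM in sham BEC, and at 15.2 CPM in SAH and 10.2 CPM in sham stroma, where the ratio was 1.49 [1.14, 1.97]. In BEC positive for Ackr1 or Selp, which mark venules, Bmp2 stood at 34.2 CPM in the SAH and 14.5 CPM in the sham library, a ratio of 2.36 [1.80, 3.12]. There 10 cells held 63.1% of the SAH and 54.9% of the sham UMIs, so that value rests on few cells. Bmp4 stood at 25.2 CPM in SAH and 26.0 CPM in sham stroma. In BEC it stood at 5.99 CPM in the SAH and 3.50 CPM in the sham library, a ratio of 1.71 [1.37, 2.14] from 222 SAH and 128 sham UMIs. Genes of other cells moved with it in BEC. Dcn, the fibroblast proteoglycan, was at 1293 CPM in SAH and 608 CPM in sham BEC, and the 6 stromal markers, all detected in both libraries, summed to 1874 CPM in SAH and 1042 CPM in sham BEC. The 6 LEC markers other than Ccl21a, of which only the gating gene Prox1 was at 0, had the sums in BEC given above, 118 CPM in SAH and 77.4 CPM in sham, and the 5 salivary epithelium markers, all detected, summed to 878 CPM in SAH and 195 CPM in sham BEC. In BEC gated with at least 2 UMIs of Pecam1 and of Ly6c1 and Flt1 together, and with no Dcn or Col3a1, Bmp4 was at 4.00 CPM in the SAH and 2.31 CPM in the sham library, a ratio of 1.73 [1.17, 2.58]. The part of these LEC and epithelial transcripts was not tested.

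Bmp6, a ligand known best from liver endothelium, where it controls hepcidin and iron, was close to the limit of detection. It had 13 SAH and 6 sham UMIs in LEC, 16 SAH and 8 sham UMIs in BEC, and 1 SAH and 0 sham UMIs in stroma. A count of 0 allows up to 0.378 CPM in sham stroma (3 counts of the class total). The BEC ratio of 1.97 [0.796, 5.32] had an interval that includes 1, and it was 1.33 with the BEC sets weighted equally.

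Bmpr2, the type II receptor, was spread over all 3 classes and differed little between the libraries. It stood at 154 CPM in SAH and 157 CPM in sham LEC, at 194 CPM in SAH and 202 CPM in sham BEC, and at 85.6 CPM in SAH and 92.2 CPM in sham stroma. The ratios were 0.978 [0.931, 1.03] in LEC, 0.961 [0.930, 0.992] in BEC and 0.929 [0.842, 1.02] in stroma. Within LEC it was higher in Ackr4-positive cells (189 CPM in SAH, 182 CPM in sham) than in Madcam1- or Coch-positive cells (93.6 CPM in SAH, 106 CPM in sham), the same order as Bmp4.

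Of the 3 classes, BEC held the highest levels of both inhibitory Smads in either library. Smad6, which blocks BMP receptors and Smad1 in particular, stood at 22.9 CPM in SAH and 31.3 CPM in sham BEC, a ratio of 0.733 [0.670, 0.802]. Its LEC level was 4.93 CPM in the SAH and 6.09 CPM in the sham library, and its stromal level 14.4 CPM in the SAH and 16.3 CPM in the sham library. Within BEC, the Smad6 level was highest in cells with Gja5 or Bmx, genes of arterial endothelium, at 75.6 CPM in the SAH and 85.0 CPM in the sham library. These cells held 81 of 850 SAH and 142 of 1143 sham UMIs. Most UMIs, 641 SAH and 844 sham, lay in BEC of no mark (no Gja5, Bmx, Chst4, Ackr1 or Selp). The level there was 25.6 CPM in the SAH and 35.6 CPM in the sham library. Ackr1- or Selp-positive BEC held 16.7 CPM in the SAH and 18.0 CPM in the sham library. Cells with Chst4, a sulfotransferase of high endothelial venules through which lymphocytes enter the node, held 7.77 CPM in the SAH and 9.07 CPM in the sham library. The arterial-type level was 9.73-fold [6.71, 14.2] the Chst4-positive level in the SAH and 9.37-fold [6.73, 13.2] in the sham library. The 5 salivary epithelium markers summed to 3758 CPM in SAH and 79.8 CPM in sham Chst4-positive BEC, with 1 of them at 0 in sham. In the other BEC sets of the SAH library they summed to between 175 CPM and 345 CPM. Their part in the Chst4-positive levels was not tested.

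Smad7, which damps both BMP and TGF-beta receptors, followed the same order in BEC. It stood at 193 CPM in SAH and 244 CPM in sham Gja5- or Bmx-positive BEC, against 49.3 CPM in SAH and 53.5 CPM in sham Chst4-positive BEC. Over all BEC it stood at 118 CPM in the SAH and 122 CPM in the sham library (ratio 0.970 [0.930, 1.01]). In stroma it was at 51.6 CPM in the SAH and 86.2 CPM in the sham library, a ratio of 0.599 [0.535, 0.671].

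Of the 3 classes, BEC were highest in Id1 and Id3, and stroma came next for Id3 but last for Id1. Id1 stood at 887 CPM in SAH and 1065 CPM in sham BEC, at 164 CPM in SAH and 169 CPM in sham LEC, and at 55.3 CPM in SAH and 71.2 CPM in sham stroma. Id3 stood at 1416 CPM in SAH and 1670.4 CPM in sham BEC, at 618 CPM in SAH and 989 CPM in sham stroma, and at 328 CPM in SAH and 378 CPM in sham LEC. The order of the 3 classes was the same in both libraries for each gene. BEC exceeded LEC in Id1 by 5.40-fold [5.22, 5.59] in the SAH and 6.31-fold [6.08, 6.54] in the sham library, and in Id3 by 4.32-fold [4.22, 4.43] in the SAH and 4.42-fold [4.31, 4.53] in the sham library.

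**Figure D2:**
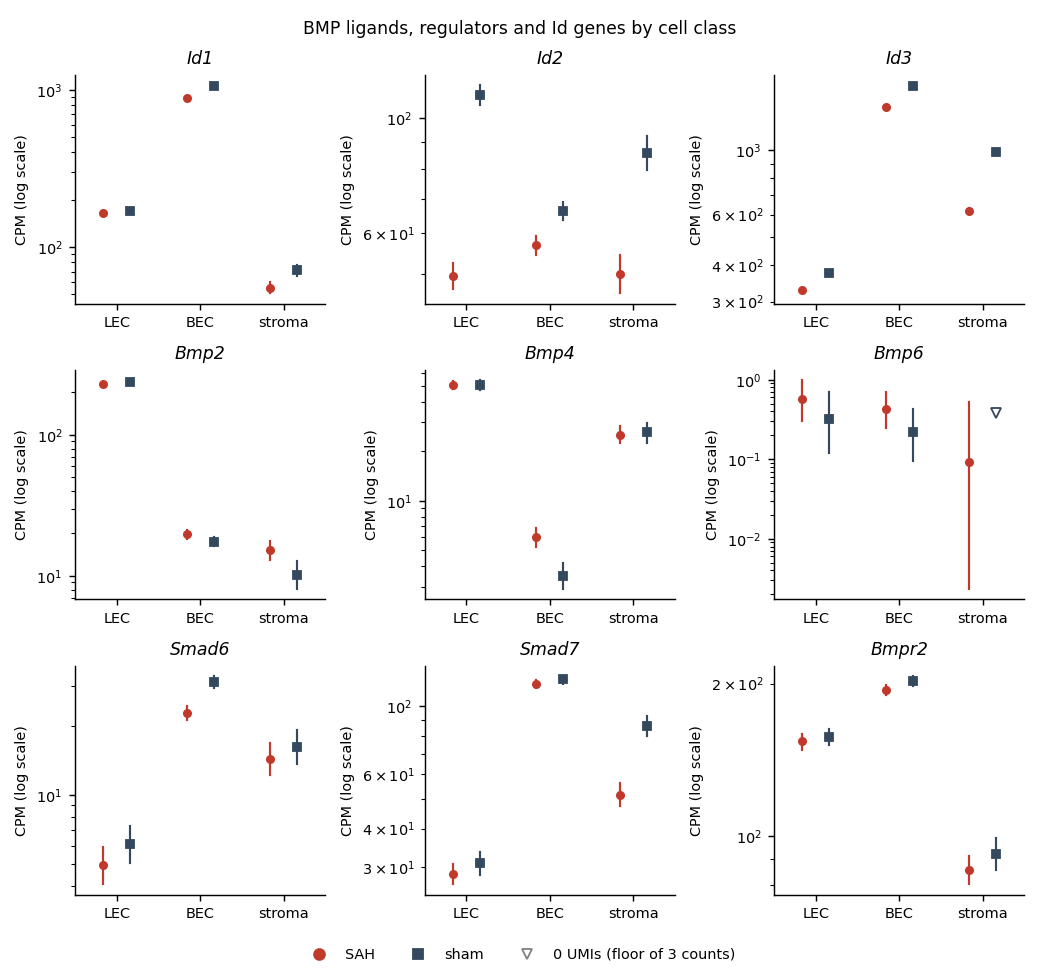
Level in CPM (log axis, a separate range in each panel) of the 9 genes in LEC, BEC and fibroblastic stroma of the SAH library (circles) and the sham library (squares), with exact Poisson 95% intervals that cover counting error only, where an open triangle marks a count of 0 at its floor of 3 counts. Id1 is highest in BEC (887 CPM in SAH, 1065 CPM in sham), Bmp2 in LEC (229.8 CPM in SAH, 236 CPM in sham), and Id2 in LEC differs most between the libraries (49.7 CPM in SAH, 111 CPM in sham).

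The LEC levels of Id1 and Id3 depended on how firmly a cell carried Prox1. Cells with exactly 1 Prox1 UMI held 405 CPM of Id1 in the SAH and 374 CPM in the sham library. Cells with at least 3 held 97.6 CPM in the SAH and 108 CPM in the sham library, and Prox1-negative, Pecam1-positive cells held 834 CPM in the SAH and 1012 CPM in the sham library. Ly6c1 or Flt1, the BEC gate genes, were detected in 65.1% of SAH and 50.3% of sham cells with 1 Prox1 UMI, and in 56.6% of SAH and 32.1% of sham cells with at least 3. In LEC with at least 2 Prox1 UMIs and no Ly6c1, Flt1, Dcn or Col3a1, which left 247 SAH and 634 sham cells, Id1 was at 16.8 CPM in the SAH and 26.3 CPM in the sham library. Id1 was thus far lower in the cells that carried Prox1 firmly and no Ly6c1, Flt1, Dcn or Col3a1, in both libraries. Other BEC and stromal genes were not filtered by this gate. The part of BEC transcripts in the LEC level of Id1 was not tested. Bmp2 and Bmp4 behaved otherwise, at 355 CPM in SAH and 361 CPM in sham, and at 66.3 CPM in SAH and 56.7 CPM in sham, under that gate. Barcodes called doublets by Scrublet were kept in the levels given here. Without them Id1 in Ackr4-positive LEC was at 54.5 CPM in SAH and 54.6 CPM in sham, against 121 CPM and 129 CPM with them. Id3 there was at 181 CPM in SAH and 257 CPM in sham, against 281 CPM and 369.5 CPM. Bmp4 there was at 93.2 CPM in SAH and 97.4 CPM in sham, against 89.8 CPM and 88.5 CPM.

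Within BEC, Id1 and Id3 were lowest in the Chst4-positive cells of high endothelial venules. Id1 stood there at 438 CPM in the SAH and 528 CPM in the sham library, against 1128 CPM in SAH and 1472 CPM in sham Gja5- or Bmx-positive BEC. Ackr1- or Selp-positive BEC held 609.9 CPM of Id1 in the SAH and 787 CPM in the sham library. Id3 stood at 639 CPM in SAH and 781 CPM in sham Chst4-positive BEC, and at 1467 CPM in SAH and 1909 CPM in sham Gja5- or Bmx-positive BEC. BEC of no mark held 1040.1 CPM of Id1 in the SAH and 1225 CPM in the sham library. Their Id3, at 1658 CPM in the SAH and 1934 CPM in the sham library, was the highest of the 4 BEC sets. Id2 was not lowest in Chst4-positive BEC. Its level there, 82.5 CPM in SAH and 88.3 CPM in sham, was the highest of the 4 BEC sets in either library. Id1 and Id3 were often found together. In thinned BEC, Id3 was detected in 90.3% of SAH cells with Id1 and 68.6% of those without, and in 90.9% of sham cells with Id1 and 69.3% of those without. Mural cells, the contractile cells around vessels, numbered 46 in the SAH and 81 in the sham library and held 776 CPM of Id1 in the SAH and 930.5 CPM in the sham library.

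Id2 had another pattern in LEC, with its highest level in the floor-type lymphatic cells that also held Bmp2. In Madcam1- or Coch-positive LEC it stood at 128 CPM in the SAH and 325 CPM in the sham library, against 18.0 CPM in SAH and 20.9 CPM in sham Ackr4-positive LEC. The Madcam1- or Coch-positive level was 7.09-fold [5.93, 8.51] the Ackr4-positive level in the SAH and 15.5-fold [13.3, 18.3] in the sham library. Among thinned LEC, Bmp2 was found in 45.2% of SAH cells with Id2 and 19.9% of those without, and in 48.1% of sham cells with Id2 and 16.3% of those without. Inside the Madcam1- or Coch-positive LEC, Bmp2 was in 73.2% of SAH cells with Id2 and 62.6% of those without, and in 68.1% of sham cells with Id2 and 66.2% of those without.

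The main comparison asked how the 9 genes differed between SAH and sham LEC. Id2 was the only member with at least 20 UMIs that was past 1.5-fold. It was at 49.7 CPM in the SAH and 111 CPM in the sham library, a ratio of 0.449 [0.417, 0.483] from 1129 SAH and 2057 sham UMIs. Of the 8 members with at least 20 UMIs, 1 was at least 1.5-fold lower in SAH and 0 were at least 1.5-fold higher. Of the 13451 genes with as many UMIs, 6.34% were lower by that size and 9.14% higher. The count of members is thus close to the background of all genes, and no result is read from it. Id3 had a ratio of 0.868 [0.840, 0.897], Id1 of 0.972 [0.927, 1.02], Smad7 of 0.924 [0.825, 1.04] and Smad6 of 0.810 [0.618, 1.06]. These depended on the gate. In the 247 SAH and 634 sham LEC gated without Ly6c1, Flt1, Dcn or Col3a1, Id3 was at 78.6 CPM in SAH and 129.9 CPM in sham (0.605 [0.499, 0.730]). Id1 was at 16.8 CPM in SAH and 26.3 CPM in sham (0.642 [0.414, 0.967]), and both were past 1.5-fold lower. Smad7 turned to the higher side, at 16.3 CPM in SAH and 9.85 CPM in sham (1.65 [0.993, 2.72]). Id2 there had a ratio of 0.537 [0.417, 0.686].

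The Id2 ratio was past 1.5-fold in 3 of the 5 lymphatic sets. The ratio was 0.393 [0.354, 0.435] in Madcam1- or Coch-positive LEC and 0.367 [0.308, 0.437] in LEC with several marks, where Id2 stood at 61.1 CPM in the SAH and 167 CPM in the sham library. It was 0.254 [0.167, 0.385] in Marco-positive LEC, at 21.8 CPM in the SAH and 85.7 CPM in the sham library, but there 10 of the 244 SAH cells held 51.1% of the SAH UMIs and 10 of the 92 sham cells 90.6% of the sham UMIs. In those Marco-positive cells Ptprc, which encodes the leukocyte protein CD45, was at 0.484 CPM in the SAH and 9.70 CPM in the sham library, and the 6 stromal markers, all detected, summed to 1197 CPM in the SAH and 2852 CPM in the sham library, whose part was not tested. The 3 T and NK cell markers in the files were at 0 there in both libraries. Ackr4-positive LEC had a ratio of 0.861 [0.692, 1.07], and LEC of no mark 0.796 [0.642, 0.986]. This order of the sets depended on the gate. In Ackr4-positive LEC with at least 2 Prox1 UMIs and no Ly6c1, Flt1, Dcn or Col3a1, the Id2 ratio was 0.663 [0.295, 1.35]. That value, from 10 SAH and 39 sham UMIs, is past 1.5-fold lower, with an interval that includes 1. Madcam1- or Coch-positive LEC of the same gate had 0.597 [0.431, 0.814]. With cells thinned to 2000 UMIs, Id2 had a UMI in 16% [12.7, 19.7] of SAH and 30.9% [26.7, 35.5] of sham Madcam1- or Coch-positive LEC, against 3.37% of SAH and 4.32% of sham Ackr4-positive LEC. Unthinned, the shares in Madcam1- or Coch-positive LEC were 46.2% in the SAH and 54.4% in the sham library, at median depths of 9062.5 SAH and 7851 sham UMIs. Fewer thinned cells with a UMI and a lower CPM thus went together, while Bmp2 in the same cells had a ratio of 1.01.

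Other values moved with Id2 in the Madcam1- or Coch-positive cells. The cell cycle genes Mki67, Top2a and Ccnb1 summed to 6.06 CPM in SAH and 59.5 CPM in sham Madcam1- or Coch-positive LEC, with 1 of the 3 at 0 in the SAH library. With every cell holding a UMI of these 3 genes left out, 430 SAH and 410 sham cells remained and the Id2 ratio was 0.403 [0.362, 0.448]. In LEC with several marks the same 3 genes summed to 14.2 CPM in the SAH and 96.3 CPM in the sham library. The median share of UMIs in immediate early genes, which handling and digestion can induce, was 1.08% in SAH and 1.38% in sham cells of this set. Of 23 such genes 5 were at least 1.5-fold lower in SAH, against 7.63% of all genes, and 0 higher, against 11.3%. The median mitochondrial share was 3.34% in SAH and 3.95% in sham cells. With the cells put into 3 groups by either share and the groups weighted equally, the Id2 ratio was 0.414 for the immediate early and 0.400 for the mitochondrial share. Id2 is also a gene of innate lymphocytes. Ptprc was at 3.64 CPM in SAH and 3.17 CPM in sham cells of this set, and the 3 T and NK cell markers summed to 2.67 CPM in the SAH library, with 2 of them at 0, and 2.19 CPM in the sham library, with 1 at 0. The gate without Ly6c1, Flt1, Dcn or Col3a1 left few cells of this set, 44 in the SAH and 141 in the sham library. In these Id2 was at 139 CPM in the SAH and 233 CPM in the sham library, a ratio of 0.597 [0.431, 0.814].

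In the Madcam1- or Coch-positive LEC, 2 of the 8 members with at least 20 UMIs were at least 1.5-fold lower in SAH, against 7.63% of the 11244 genes tested there, and 1 was at least 1.5-fold higher, against 11.3%. The lower members were Id2 and Smad6, the second with 14 SAH and 22 sham UMIs and a ratio of 0.633 [0.300, 1.29] whose interval includes 1 and which was 0.868 with at least 1000 genes and at most 5% mitochondrial UMIs. Id1 was the higher one. Id1 stood at 115 CPM in SAH and 76.1 CPM in sham Madcam1- or Coch-positive LEC, a ratio of 1.51 [1.31, 1.75]. The 6 BEC markers, all detected, summed to 1642 CPM in SAH and 1343 CPM in sham cells of this set, and 10 cells held 32.4% of the SAH and 45.2% of the sham Id1 UMIs. Under the gate without Ly6c1, Flt1, Dcn or Col3a1 the Id1 ratio was 1.04 [0.338, 2.74] from 6 SAH and 18 sham UMIs. It also fell short of 1.5-fold in cells with at least 3 Prox1 UMIs (1.31), with at least 200 genes and at most 20% mitochondrial UMIs (1.45) and with TMM factors (1.49). Id3 stood at 209 CPM in the SAH and 186 CPM in the sham library in this set, a ratio of 1.12 [1.02, 1.24], and in Ackr4-positive LEC at 281 CPM in the SAH and 369.5 CPM in the sham library, a ratio of 0.759 [0.720, 0.801].

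**Figure D3:**
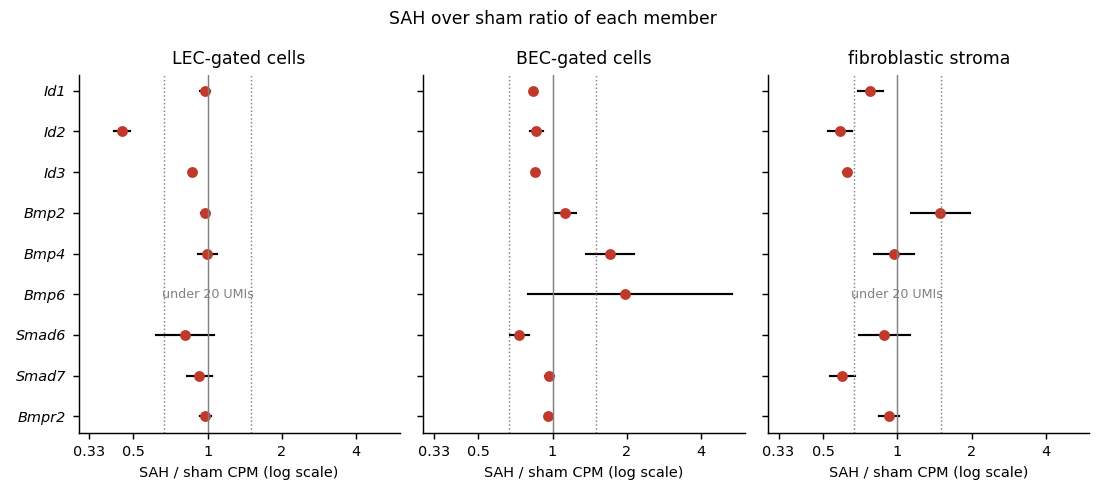
SAH over sham CPM ratio of each of the 9 genes (log axis) in LEC, BEC and fibroblastic stroma, where points are ratios, bars exact conditional binomial 95% intervals that cover counting error only, and dotted lines mark 1.5-fold in either direction. Id2 in LEC (0.449) and Id2, Id3 and Smad7 in stroma (0.585, 0.625 and 0.599) lie below the lower line, and Bmp4 and Bmp6 in BEC (1.71 and 1.97) above the upper line.

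In BEC the 3 Id genes among the members were all somewhat lower in the SAH library, by less than 1.5-fold. The ratio was 0.833 [0.821, 0.845] for Id1, 0.859 [0.810, 0.911] for Id2, which stood at 56.9 CPM in the SAH and 66.3 CPM in the sham library, and 0.848 [0.838, 0.858] for Id3. All 4 BEC subsets had ratios below 1 for Id1, Id2 and Id3, with Id1 between 0.766 in Gja5- or Bmx-positive and 0.849 in no-mark BEC. Id4, an Id gene outside the members, went the other way. It stood at 7.99 CPM in SAH and 5.81 CPM in sham BEC, a ratio of 1.38 [1.15, 1.65] from 296 SAH and 212 sham UMIs. Of the 9 members, 0 were at least 1.5-fold lower in SAH BEC, against 5.74% of the 14018 genes tested, and 2 were at least 1.5-fold higher, against 12.4%. The 2 were Bmp4 and Bmp6, the members with the fewest UMIs in BEC. The thinned share of BEC with a UMI of Id1 was 67.3% [66.0, 68.5] in the SAH and 72.8% [71.6, 74.0] in the sham library. Unthinned it was 82.1% in the SAH and 85.4% in the sham library, at the median BEC depths given above, and 12.5% of thinned B cells held Id1 in either library, from 2 of 16 SAH and 4 of 32 sham cells.

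In fibroblastic stroma 3 members were at least 1.5-fold lower in the SAH library. Id3 stood at 618 CPM in the SAH and 989 CPM in the sham library, a ratio of 0.625 [0.605, 0.646]. Id2 stood at 50.2 CPM in the SAH and 85.7 CPM in the sham library, a ratio of 0.585 [0.522, 0.656], and Smad7 had the ratio of 0.599 given above. These were 3 of 8 members with at least 20 UMIs, against 10.2% of the 12478 genes tested, and 0 of the 8 were at least 1.5-fold higher, against 8.49%. Id1, with a ratio of 0.776 [0.691, 0.873], was lower by less, Bmp4 (0.970 [0.806, 1.17]) and Bmpr2 (0.929 [0.842, 1.02]) had intervals that include 1, and so did Smad6 (0.886 [0.697, 1.13]).

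Stroma was split by Ccl19, the chemokine of T-zone reticular fibroblasts, and by Pi16, a marker of adventitial fibroblasts. In Ccl19-positive cells Id3 stood at 617 CPM in the SAH and 1049 CPM in the sham library, a ratio of 0.589 [0.567, 0.611]. In stroma of no mark it stood at 698 CPM in the SAH and 903 CPM in the sham library, a ratio of 0.773 [0.713, 0.839], and in Pi16-positive stroma at 362 CPM in the SAH and 559 CPM in the sham library (0.648 [0.498, 0.838]). The Id3 ratio was thus below 1 in all 3 sets. The Id2 ratio was 0.616 [0.537, 0.707] in Ccl19-positive stroma and 0.567 [0.438, 0.729] in stroma of no mark, but 2.27 [1.09, 4.90] in Pi16-positive stroma. That last value came from 22 SAH UMIs, all in at most 10 of 50 cells and 12 of them in 1 cell, and 13 sham UMIs. The Smad7 ratio was 0.617 [0.542, 0.701] in Ccl19-positive stroma and 0.501 [0.366, 0.675] in stroma of no mark. With the 3 sets weighted equally, so that the small Pi16-positive set counts as much as the others, the ratio was 0.580 for Smad7, 0.668 for Id3 and 0.865 for Id2, of which only Smad7 passes 1.5-fold. Id3 also fell short of 1.5-fold with at least 1000 genes and at most 5% mitochondrial UMIs (0.690) and with every cell weighted equally (0.671).

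Markers of the cells' state moved with the stromal values. The 25 immediate early genes summed to 17247 CPM in SAH and 23937 CPM in sham stroma. Of the 24 with at least 20 UMIs 12 were at least 1.5-fold lower in SAH, against 10.2% of all genes, and 0 higher, against 8.49%. The median log2 ratio of the 24 was -0.59, against -0.06 over all genes tested in stroma. With the cells put into 3 groups by their share of immediate early UMIs and the groups weighted equally, the stromal ratios were 0.704 for Id3, 0.655 for Id2 and 0.638 for Smad7. The cell cycle genes summed to 2.97 CPM in SAH and 11.3 CPM in sham stroma, and without the cells that held them the ratios were 0.587 for Id2, 0.635 for Id3 and 0.599 for Smad7. The 5 mural markers, all detected, summed to 912 CPM in SAH and 1376 CPM in sham stroma, and the 5 salivary epithelium markers, all detected, to 627 CPM in SAH and 279 CPM in sham stroma. The 3 T and NK cell markers summed to 0.464 CPM in SAH and 7.06 CPM in sham stroma, and in stroma of no mark to 0 in SAH and 23.4 CPM in sham, while Ptprc was at 2.32 CPM in SAH and 2.14 CPM in sham stroma. The part of the mural, epithelial and lymphocyte transcripts was not tested.

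**Figure D4:**
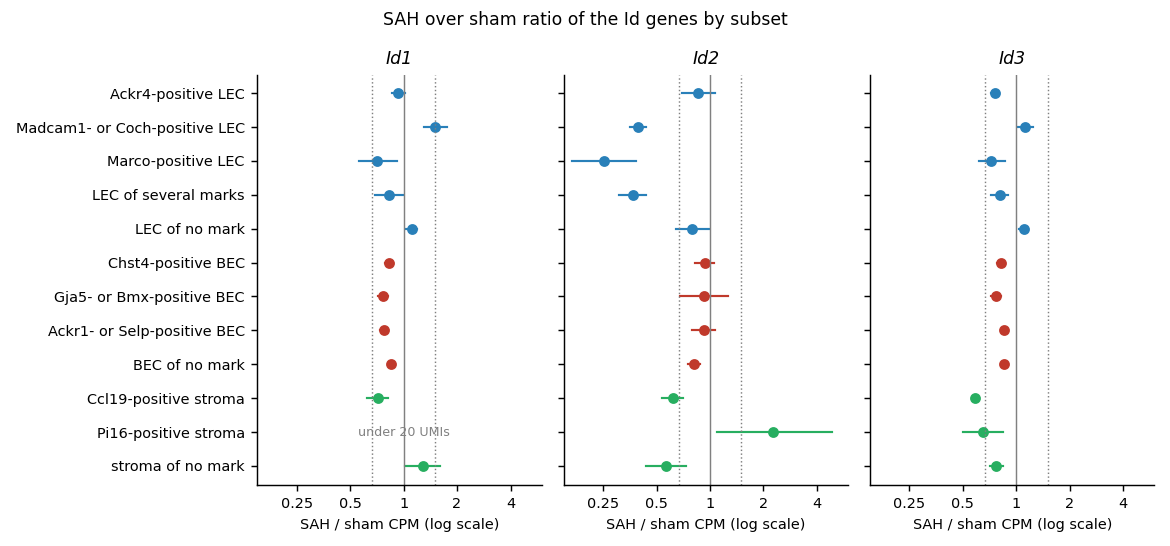
SAH over sham CPM ratio (log axis) of Id1, Id2 and Id3 in 5 lymphatic (blue), 4 blood endothelial (red) and 3 stromal (green) sets of cells, where points are ratios, bars exact conditional binomial 95% intervals that cover counting error only, and dotted lines mark 1.5-fold. Id2 is lowest in Marco-positive (0.254), several-mark (0.367) and Madcam1- or Coch-positive LEC (0.393), and Id3 is lowest in Ccl19-positive stroma (0.589).

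The rest of the pathway was read from gene lists by role, members included. Among 11 receptors and co-receptors, 10 had at least 20 UMIs in LEC, of which 2 were at least 1.5-fold higher, against 9.14% of all genes, and 0 lower in SAH. These were Eng, the endothelial co-receptor for BMP9 and BMP10, at 344 CPM in SAH and 202 CPM in sham LEC (1.70 [1.63, 1.77]), and, chosen after its value was seen, Acvrl1, the type I receptor for the same ligands, at 111 CPM in SAH and 71.6 CPM in sham LEC (1.54 [1.44, 1.65]), which fell short of 1.5-fold in LEC with at least 3 Prox1 UMIs (1.46). In Madcam1- or Coch-positive LEC, where 4 of 9 receptors were at least 1.5-fold higher, against 11.3% of all genes, and 0 lower, Eng was at 213 CPM in the SAH and 106 CPM in the sham library (2.00 [1.78, 2.25]) and Acvrl1 at 78.3 CPM in the SAH and 45.6 CPM in the sham library (1.72 [1.43, 2.07]). The other two, Bmpr1a and Neo1, had at most 26 UMIs in a library and intervals that include 1. Eng was also higher in SAH stroma (112 CPM in SAH, 65.3 CPM in sham, 1.72 [1.55, 1.91]) and, by less than 1.5-fold, in SAH BEC (670.1 CPM in SAH, 502 CPM in sham, 1.33 [1.31, 1.36]). In SAH LEC, Ly6c1 was 1.58-fold [1.54, 1.63] and Flt1 1.46-fold [1.40, 1.52] higher too. In LEC under the gate without Ly6c1, Flt1, Dcn or Col3a1 the ratios were 1.80 [1.60, 2.02] for Eng and 1.55 [1.26, 1.91] for Acvrl1. In the 44 SAH and 141 sham Madcam1- or Coch-positive cells of that gate, Acvrl1 had a ratio of 1.31 [0.684, 2.41] from 16 SAH and 38 sham UMIs, which no longer passes 1.5-fold, and Eng one of 2.26 [1.57, 3.24]. BMP9 and BMP10 themselves, encoded by Gdf2 and Bmp10, had at most 3 UMIs in any class and library.

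Among genes that bind or mimic parts of the BMP system outside the cell, those past 1.5-fold in LEC and stroma were lower in SAH, and those in BEC went both ways. In LEC, 1 of the 9 antagonists and modulators with enough UMIs was at least 1.5-fold lower, against 6.34% of all genes, and 0 higher, against 9.14%. The lower one, Fst, which binds activins and some BMPs, was at 3.70 CPM in SAH and 9.80 CPM in sham LEC (0.377 [0.288, 0.491]). In LEC gated without Ly6c1, Flt1, Dcn or Col3a1, Fst had only 6 SAH and 6 sham UMIs (2.40 [0.640, 8.96]), too few to give a direction. In BEC, 2 of 11 were lower, against 5.74% of all genes, and 2 higher, against 12.4%, with a median log2 ratio of 0.45. Bambi, a receptor-like protein without a kinase that blocks signalling and is itself a BMP and TGF-beta target, was at 74.1 CPM in SAH and 125 CPM in sham BEC (0.594 [0.567, 0.623]). Chrd had 10 SAH and 24 sham UMIs in BEC (0.411 [0.175, 0.891]), Fstl3 67 SAH and 32 sham UMIs (2.06 [1.34, 3.25], but 1.36 with the BEC sets weighted equally), and Grem1 stood at 15.7 CPM in SAH and 10.3 CPM in sham BEC (1.53 [1.34, 1.75]). Grem1 was at 161 CPM in SAH and 144 CPM in sham stroma, and its BEC ratio ran from 1.22 with the BEC sets weighted equally to 1.96 [1.22, 3.17] in BEC gated without Dcn or Col3a1, falling short of 1.5-fold under 6 of 12 alternatives. In stroma 2 of 11 were lower, against 10.2% of all genes, and 0 higher, namely Chrd (2.88 CPM in SAH, 6.55 CPM in sham, 0.440 [0.272, 0.699]) and Fst (35.1 CPM in SAH, 64.5 CPM in sham, 0.544 [0.475, 0.623]). With the 3 stromal sets weighted equally neither passed 1.5-fold, at 0.735 for Chrd and 1.07 for Fst. In BEC Fst went the other way, at 5.89 CPM in the SAH and 4.22 CPM in the sham library (1.40 [1.13, 1.73]). Its BEC ratio ran from 1.14 to 5.38 under alternatives. The highest value, 5.38 [2.48, 12.9], came from 29 SAH and 9 sham UMIs in BEC gated without Dcn or Col3a1.

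Of the 12 listed BMP targets, 11 had at least 20 UMIs in stroma and 5 of them were at least 1.5-fold lower, against 10.2% of all genes, and 0 higher in SAH. The median log2 ratio was -0.58, against -0.06 over all genes tested in stroma and -0.59 for the immediate early genes in the same cells. Besides Id2 and Id3 these were Id4 (21.2 CPM in SAH, 42.2 CPM in sham, 0.502 [0.422, 0.596]), Hes1, a Notch target as well (98.2 CPM in SAH, 162 CPM in sham, 0.606 [0.558, 0.658], but 0.684 with the stromal sets weighted equally), and Hey2 (0.595 [0.401, 0.877]). The same list had a median log2 ratio of -0.20 in LEC, with 1 of 11 lower and 1 higher, and of -0.22 in BEC, with 0 of 11 lower and 1 higher. Over all genes tested in LEC the median was 0.01, with 6.34% lower and 9.14% higher. In BEC it was 0.03, with 5.74% lower and 12.4% higher. The higher genes were Hey2 in LEC, with 31 SAH and 12 sham UMIs (2.11 [1.05, 4.52]), and Heyl in BEC, with 84 SAH and 50 sham UMIs (1.66 [1.15, 2.40]). Hey2 had 4 UMIs in all in LEC gated without Ly6c1, Flt1, Dcn or Col3a1. Madcam1- or Coch-positive LEC went otherwise, although Id2 was lower there. In that set 7 of the listed targets had at least 20 UMIs. Of these 1, Id2, was at least 1.5-fold lower, against 7.63% of all genes. Another 4, among them Id1 with the gate-dependent ratio given above, were at least 1.5-fold higher, against 11.3%. The median log2 ratio of the 7 was 0.60, against 0.02 over all genes tested in that set. The 3 E proteins that Id proteins bind were each below 1 in every class, with median log2 ratios of -0.24 in LEC, -0.29 in BEC and -0.31 in stroma, and none passed 1.5-fold in a class. Tcf4 stood at 1198 CPM in SAH and 1461 CPM in sham BEC (0.820 [0.810, 0.830]), and in Madcam1- or Coch-positive LEC Tcf3 stood at 62.6 CPM in the SAH and 99.0 CPM in the sham library (0.632 [0.539, 0.741]).

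Among Smads and their regulators no gene passed 1.5-fold in LEC or BEC. In stroma 2 of 9 were lower, against 10.2% of all genes. These were Smad7 and Ski, a repressor that binds Smads, at 82.5 CPM in the SAH and 135 CPM in the sham library (0.609 [0.557, 0.666]). Smad1, which BMP receptors activate, had ratios of 1.01 [0.979, 1.04] in LEC, 0.881 [0.852, 0.912] in BEC and 1.02 [0.909, 1.14] in stroma. Of 11 listed ligands, 4 had at least 20 UMIs in LEC, of which 0 passed 1.5-fold. In BEC 3 of 5 (Bmp3, Bmp4 and Bmp6) were at least 1.5-fold higher, against 12.4% of all genes, and 0 lower, against 5.74%. The median log2 ratio of the 5 was 0.77. In stroma 1 of 4 was lower, against 10.2% of all genes, and 0 higher, against 8.49%. Bmp3 stood at 3.43 CPM in SAH and 1.45 CPM in sham BEC (2.36 [1.70, 3.32]) but at 28.2 CPM in SAH and 25.3 CPM in sham stroma, and in BEC gated without Dcn or Col3a1 its ratio was 2.71 [1.04, 7.56]. Bmpr1a, a type I receptor, stood at 7.96 CPM in SAH and 4.49 CPM in sham BEC (1.77 [1.46, 2.16]) and at 55.1 CPM in SAH and 59.3 CPM in sham stroma. Gdf6 had 9 SAH and 15 sham UMIs in stroma (0.442 [0.171, 1.08]).

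In the related TGF-beta branch the ligand genes Tgfb1 and Tgfb2 differed in direction. Of 11 listed genes 2 were at least 1.5-fold lower and 1 higher in SAH LEC, 1 lower and 2 higher in BEC, and 2 lower and 1 higher in stroma. Over all genes tested, 6.34% were lower and 9.14% higher in LEC, 5.74% and 12.4% in BEC, and 10.2% and 8.49% in stroma. No result is read from these counts. Tgfb1 stood at 159 CPM in SAH and 102 CPM in sham LEC (1.56 [1.48, 1.65]), and at 19.1 CPM in SAH and 8.95 CPM in sham stroma (2.14 [1.63, 2.84]). Tgfb2 stood at 22.0 CPM in SAH and 52.4 CPM in sham LEC (0.419 [0.376, 0.467]), and at 13.4 CPM in SAH and 34.9 CPM in sham stroma (0.383 [0.311, 0.470]). Smad3, which carries the TGF-beta signal to the nucleus, stood at 13.6 CPM in SAH and 21.1 CPM in sham LEC (0.644 [0.553, 0.750]). Its ratio was 0.415 [0.233, 0.700] under the gate without Ly6c1, Flt1, Dcn or Col3a1. With cells binned by their immediate early share and the bins weighted equally, Smad3 was at 0.688 and Tgfb1 at 1.48 in LEC, and with the lymphatic sets weighted equally Smad3 was at 0.670, all short of 1.5-fold. In BEC, Ltbp1, which binds latent TGF-beta in the matrix, stood at 15.9 CPM in the SAH and 8.11 CPM in the sham library (1.97 [1.71, 2.27]), and Tgfb3 at 4.08 CPM in the SAH and 2.27 CPM in the sham library (1.79 [1.36, 2.37]), which fell short of 1.5-fold in BEC gated without Dcn or Col3a1 (1.28 [0.736, 2.19]).

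**Figure D5:**
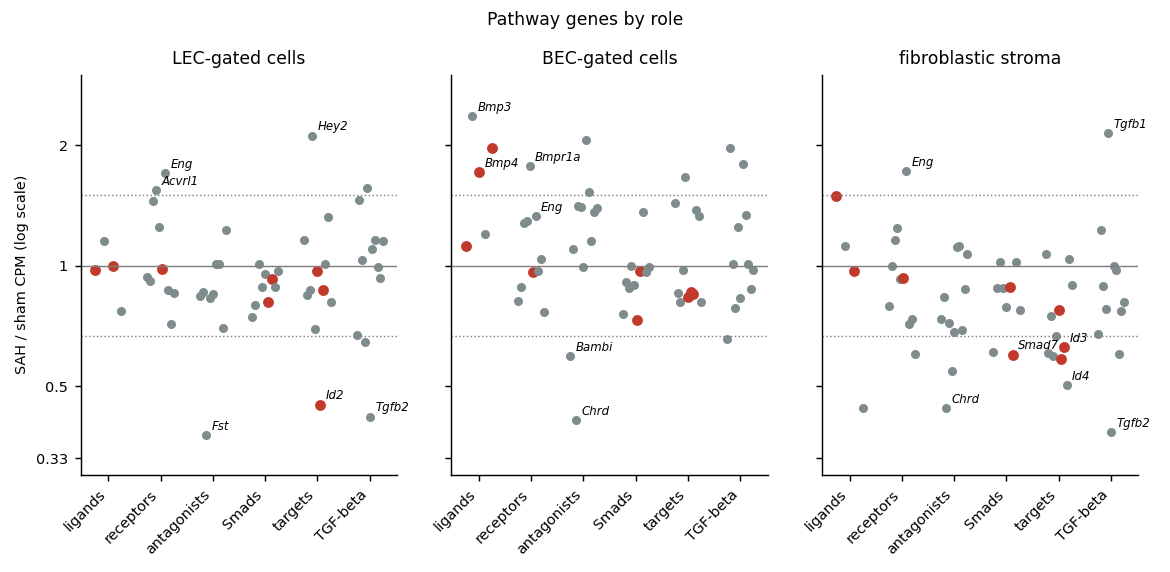
SAH over sham CPM ratio (log axis) of genes with at least 20 UMIs over both libraries in LEC, BEC and fibroblastic stroma. Columns give the listed ligands, receptors, antagonists, Smads, targets and TGF-beta genes, and the E proteins and immediate early genes are not shown. Members are red, other listed genes grey, and dotted lines mark 1.5-fold. Eng (1.70) and Acvrl1 (1.54) stand above the line in LEC, Bambi (0.594) below it in BEC, and targets in stroma lie mostly below 1, with Id4 at 0.502.

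Genes most like each Id gene were taken by Pearson's r of log2(CPM + 10) over the 12 disjoint sets of cells in both libraries, 24 points that share libraries and cell classes. For Id1 these were Palmd (r = 0.987), Sorbs2 (0.985), BC028528 (0.971), Tnfrsf26 (0.969) and Sox17 (0.968), the last a transcription factor of arterial endothelium. For Id3 they were Smad7 (0.952), Nrp1 (0.949), Tmem47 (0.924), Lysmd2 (0.909) and Itm2b (0.907), so that a member of the set came first. Id2 had weaker likenesses, with Prnp (0.811), Pf4 (0.743), Madcam1 (0.724), Wfdc2 (0.717) and Coch (0.708). Madcam1 and Coch define the floor-type cells, so the gate keeps both out of the lymphatic sets that lack this mark. Their r with Id2 is thus partly built in by the gate, and no result is read from it beyond the Id2 levels given above. Madcam1 stood at 503 CPM in SAH and 643 CPM in sham Madcam1- or Coch-positive LEC, and Coch at 948 CPM in the SAH and 1066 CPM in the sham library.

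In mm10 coordinates (GENCODE vM21) Id1 (ENSMUSG00000042745) lies on chromosome 2 from 152736251 to 152737410, and Bmp2 (ENSMUSG00000027358) on the same chromosome from 133552159 to 133562885, both on the plus strand. Id2 (ENSMUSG00000020644) lies on chromosome 12 from 25093799 to 25097140 on the minus strand, Id3 (ENSMUSG00000007872) on chromosome 4 from 136143497 to 136145755 on the plus strand, and Bmp4 (ENSMUSG00000021835) on chromosome 14 from 46383520 to 46390669 on the minus strand. All are annotated as protein-coding, and each member had 1 entry in the files.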

How the data were processed

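The deposited tables hold UMI counts per gene and barcode for 2 libraries, 1 for SAH and 1 for sham. The authors made these counts with Cell Ranger 5.0 (5.0.0 per the file headers) on mm10, per the submitters' processing notes, which also name STAR and Seurat 3.0.2. The annotation release and whether intronic reads were counted are not given in the sources used here. The lowest barcode total was 501 UMIs in SAH and 502 in sham, and 15.0% of SAH and 17.6% of sham barcodes exceeded the mitochondrial limit.

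Groups came from the sample titles. Barcodes were gated as the report gives, counts were summed per class and library, and entries sharing a symbol were added together. CPM have exact Poisson, ratios exact conditional binomial and shares exact Clopper-Pearson 95% intervals, and shares use cells thinned to 2000 UMIs. Ratio calculations were checked on simulated counts. A gene was compared from 20 UMIs over both libraries, under alternatives too. Beside the 9 members, the 6 listed pathway genes per class with the most extreme ratio past 1.5 were named, and genes named outside that rule were chosen after their values were seen. These are Acvrl1, Bambi, Grem1, Hes1, Heyl, Tcf3, Tcf4, Smad1 and Ski, and genes given in a further class. Pathway genes not reported here were left out of the lists and their counts. The members and gene lists were chosen with earlier results of these data known. Doublets were kept, since no caller was named in the rule, and Scrublet, which called 6.36% of SAH and 5.23% of sham barcodes, was an alternative. Alternatives covered filters, gates, doublets, scaling (TMM and median-of-ratios), cell weights and composition. Raising the LEC gate to 3 Prox1 UMIs and leaving out cells with a cell cycle UMI were chosen after seeing the data. Promoters were RefSeq's, and gene coordinates and exons GENCODE vM21's. Python 3.11.15, numpy 2.4.6, scipy 1.17.1, pandas 2.3.3, scanpy 1.11.5, matplotlib 3.10.9, R 4.3.3 and edgeR 4.0.16 (TMM factors only) were used.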

Additional observations from a re-analysis of the deposited data

Results flagged for a closer look

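The SAH over sham ratio lay on opposite sides of 1 in different sets of cells for 4 members, with each interval clear of 1, and the differences between the sets were not tested. The pairs are the most extreme of 12 sets, and each set is 1 library against 1 library. For Id1 the ratio was 1.51 in Madcam1- or Coch-positive LEC and 0.711 in Marco-positive LEC. In the Marco-positive cells 10 cells held 58.8% of the SAH and 82.1% of the sham Id1 UMIs. For Id2 it was 2.27 in Pi16-positive stroma, from 22 SAH and 13 sham UMIs, and 0.254 in Marco-positive LEC. For Id3 it was 1.12 in Madcam1- or Coch-positive LEC and 0.589 in Ccl19-positive stroma. Under stricter gates the first of these was 0.793 [0.427, 1.39] from 16 SAH and 63 sham UMIs, no longer above 1. For Bmp2 it was 2.36 in Ackr1- or Selp-positive BEC, where 10 cells held 63.1% of the SAH UMIs, and 0.763 in Marco-positive LEC. There 10 cells held 32.7% of the SAH and 54.2% of the sham Bmp2 UMIs.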

How the results depend on the processing

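Of 490 values of 41 member ratios under alternatives, 399 moved by less than their counting interval, 91 moved by more and 0 were counted as reversed. Of 470 values of other pathway ratios these numbers were 423, 46 and 1. The counted reversal was Fst in stroma with subsets weighted equally (1.07). Member ratios did cross 1 without being counted as reversed. With doublets removed Smad6 in Ackr4-positive LEC went from 0.771 to 1.64. Under stricter gates Smad7 in LEC went from 0.924 to 1.65. Id3 in Madcam1- or Coch-positive LEC then went from 1.12 to 0.793, and Bmp2 in BEC from 1.12 to 0.924. Another 19 values of 11 ratios rested on fewer than 20 UMIs and are not counted. They include the opposite sides of 1 of Fst and Hey2 in LEC (12 and 4 UMIs) and of Smad6 in Madcam1- or Coch-positive LEC (2 UMIs) under stricter gates. The Id2 ratio ran from 0.395 to 0.560 in LEC, from 0.374 to 0.597 in Madcam1- or Coch-positive LEC and from 0.567 to 0.865 in stroma, the stromal Id3 ratio from 0.624 to 0.704 and Smad7 from 0.580 to 0.638.

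The count of members at least 1.5-fold higher in BEC was 0 at 2-fold and 1 with 1000 genes and 5% mitochondrial UMIs, stricter gates, 10 cells left out or subsets weighted equally. The stromal count of lower members was 0 at 2-fold and 1 with subsets weighted equally. That of higher ones was 1, for Bmp2, with 200 genes and 20% mitochondrial UMIs, stricter gates, doublets removed, TMM, median-of-ratios, cells weighted equally or 10 cells left out. Stricter gates gave 3 lower (Id1, Id2 and Id3) and 1 higher (Smad7) in LEC. Unthinned, 83 of 90 shares moved. Scaling moved the median of all genes by at most 0.08 (log2). At a minimum of 100 UMIs the background lower and higher was 3.91% and 6.98% in LEC, 3.69% and 9.05% in BEC and 6.96% and 6.13% in stroma.

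No paired analysis was possible because each group is 1 library, and likewise there was no replicate to leave out. Counting error says nothing about the spread between mice. Bmp6 and the smaller sets are limited by their UMIs.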
